A study of Capra hircus with 6 samples.

Results

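The genes described here are 44 genes of endoplasmic reticulum (ER) stress and secretory protein folding, TMBIM6 among them. They were measured in intramuscular preadipocytes of the goat, which are precursors of the fat cells found within muscle. These genes were chosen by gene name, around the measured rise of TMBIM6 in these libraries, to ask whether other ER genes rose with it. A row by that name was found for 42 of the 44 genes among the 27271 genes of the deposited tables (18989 with a name), and XBP1 and SEC61B had none. The primary cells came from the longissimus dorsi muscle of 3-day-old Jianzhou goats, and LIPG encodes endothelial lipase. The NC groups (n = 3) were transfected with a negative control siRNA and the Si-LIPG groups (n = 3) with an siRNA against LIPG, and both were then kept for 48 h in induction medium with 50 μmol/L oleic acid. By the study's methods the libraries of a group are biological replicates, without a statement of separate cultures or animals, and p values measure the spread between these libraries. A single siRNA against LIPG, siRNA-1, was taken forward in the study, which limits the Si-LIPG groups as a model of LIPG loss.

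Proteins that are secreted or placed in membranes enter the ER through the SEC61 channel, are folded there by chaperones and disulfide isomerases, and are sent back to the cytosol for degradation if they fail to fold. Unfolded protein in the ER is sensed by IRE1 (gene ERN1), PERK (EIF2AK3) and ATF6, which raise folding and degradation genes and, through ATF4 and DDIT3 (CHOP), genes that decide between recovery and cell death. TMBIM6, also called Bax inhibitor-1, is an ER membrane protein that holds down calcium release and IRE1 signaling, and cells that secrete much collagen, such as fibroblasts and preadipocytes, use this folding machinery heavily.

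Between 524776 and 1051230 reads of a library were counted on genes, which was 0.997% to 1.53% of all reads for NC and 1.80% to 2.88% for Si-LIPG, so this share and the group cannot be told apart. LIPG itself had at most 2 counts in any library, fewer than the 3 counts that a count of 0 allows (2.85 to 5.72 CPM, counts scaled to the reads counted on genes, counting error only). The direction of every comparison therefore rests on the sample titles and could not be checked on LIPG. If the titles were exchanged, every direction given here would turn. With DESeq2, which the study also used, 629 of 14848 genes were higher in Si-LIPG and 1064 lower (unadjusted p under 0.05, fold change over 1.5). The study reports more genes up than down after knockdown, and the cause of this difference was not tested. The mitochondrial gene ND6, which lies on the strand opposite to the other mitochondrial protein genes, had 22.6 to 99.3 times their median counts per kb. The libraries were made with dUTP marking of strand, and the strand setting of the counting is not given in the sources used here. Of all reads of a library, 91.6% to 93.7% fell on no annotated feature. Whether the counted reads lay on the wrong strand was not tested. If they did, the values given here would come from reads opposite to the named genes and would not be their levels. Fibroblast and preadipocyte markers were counted in every library for 10 of 12 genes (DLK1 was at 0 throughout and COL3A1 had no row by that name), and their summed CPM was 13074 to 27223 for NC and 38634 to 41147 for Si-LIPG. The 7 myogenic markers with a row summed to 276 to 387 in the NC and 475 to 531 in the Si-LIPG libraries, the 7 adipocyte markers to 9.53 to 22.7 and 18.5 to 38.7 (LPL at 0 throughout), and the endothelial (CDH5, KDR and TEK at 0) and leukocyte (PTPRC and CD3E at 0) markers to at most 7.13 and 26.6. The part of these differences in the results below was not tested, and in bulk RNA more cells of a type and more RNA per cell cannot be told apart.

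TMBIM6 was the member on which the list was chosen, so its values are a description without a test. Its deposited counts for replicates 1, 2 and 3 were 18, 26 and 46 in NC and 138, 255 and 229 in Si-LIPG. After TMM normalization, which scales libraries on the assumption that most genes do not change, its level was 58.4, 46.8 and 72.5 CPM in the NC libraries and 156, 208 and 167 CPM in the Si-LIPG libraries. Every Si-LIPG library was above every NC library, and the means were 59.2 ± 12.9 (SD, n = 3) and 177 ± 27.3 (SD, n = 3) CPM. The log2 fold change (Si-LIPG over NC) was 1.57 with a standard error (SE) of 0.34. On the length-scaled FPKM values, TMBIM6 stood at 6.67, 8.40 and 12.7 for NC and at 31.0, 50.5 and 42.4 for Si-LIPG, a mean of 25.3 over all libraries. RefSeq's gene models of goat assembly ARS1.2 place no other gene over TMBIM6 or within 1 kb of it.

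Most of the other ER genes were somewhat higher in the libraries labelled Si-LIPG, but few differed by more than the spread between libraries after TMM normalization. Of the 37 members with enough counts to be tested, 33 had a log2 fold change above 0 (32 of 36 without TMBIM6), against 58.4% of the 6574 genes tested. Their median log2 fold change was 0.42, with or without TMBIM6, which was 0.26 above the median of all tested genes (0.16). By the criterion of the study, an unadjusted p below 0.05 with a fold change above 1.5 (edgeR's quasi-likelihood test), 5 of the 36 members other than TMBIM6 were higher and 1 was lower, where 7.83% of all tested genes were higher and 12.9% were lower by it. The 5 were PDIA3, PDIA6, UGGT1, EDEM1 and SSR1, and the lower gene was CRELD2. With each library left out in turn, 2 to 8 of the 36 were higher, the fewest without Si-LIPG 2 and the most without NC 1 or NC 3. Of all tested genes, 3.51% were higher by it without Si-LIPG 2, 8.26% without NC 1 and 9.8% without NC 3.

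After Benjamini-Hochberg adjustment over all tested genes, 0 of the 36 had an adjusted p under 0.05 with edgeR in either direction. Of all 6574 tested genes, 428 passed it in either direction, and 0.974% were past it and higher. An unadjusted p under 0.05 was seen for 6 of them. These were the members at the criterion, which 1361 of all 6574 tested genes met in either direction. After adjustment 0 passed with DESeq2 or with limma on log2(FPKM + 1), where 595 of 14848 and 0 of 6574 genes passed. The number of members past adjustment depended on the setting, and so did that of all tested genes. It was 1 of 36 with library sizes alone (SSR1), without NC 3 (EDEM1) and without Si-LIPG 1 (CRELD2). In these settings 123, 501 and 648 of all 6574 tested genes passed. Among members with at least 10 counts in every library it was 5 of 20 (CANX, PDIA3, PDIA6, SSR1 and UGGT1), against 714 of 2757 tested genes. With counts scaled to all reads it was 10 of 36, against 750 of 6574 tested genes. No overlap between the groups, with every Si-LIPG library the higher, was seen for 8 of the 36 (CALR, CANX, PDIA3, PDIA4, UGGT1, SEL1L, EDEM1 and SSR1), where 15.2% of all tested genes were in this state.

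**Figure D1:**
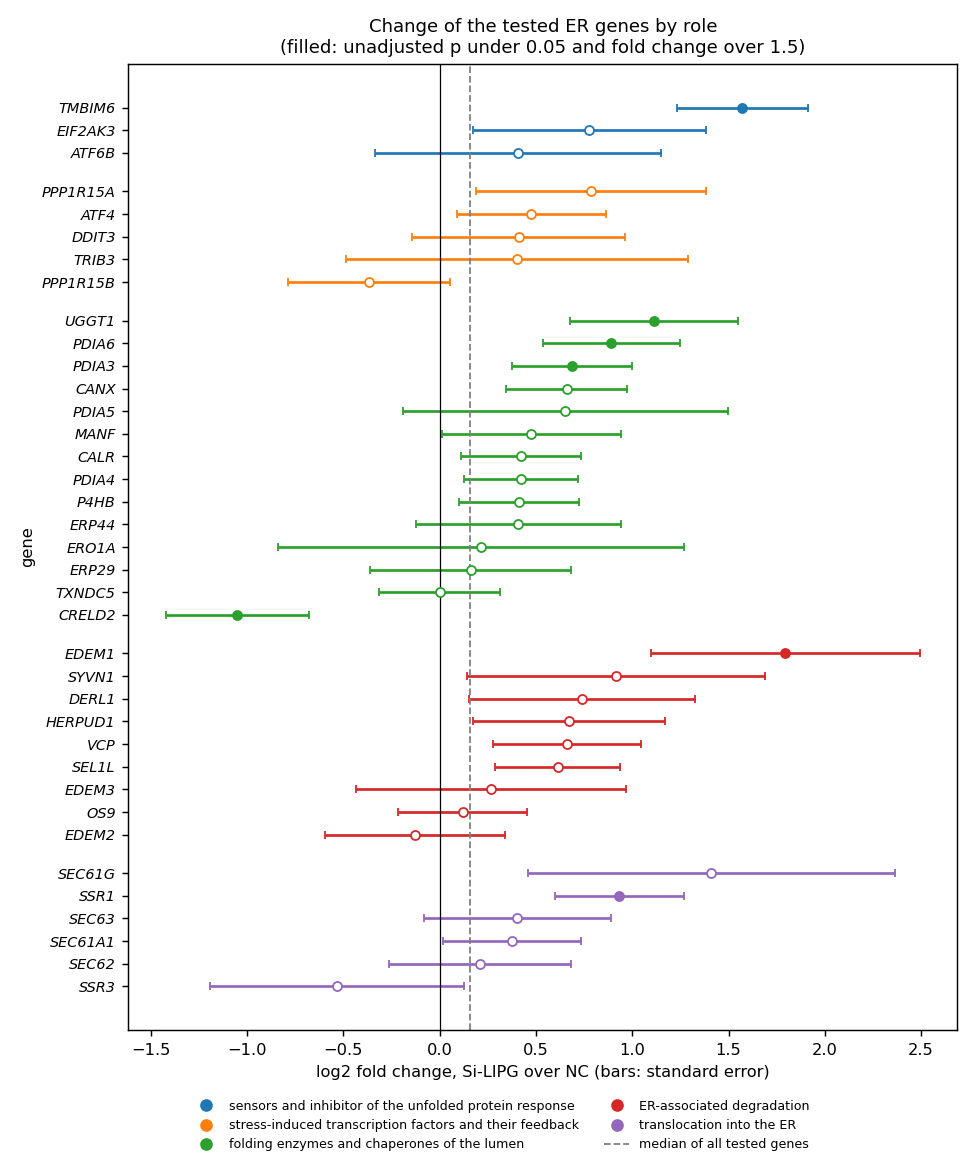
Log2 fold change (Si-LIPG over NC, x axis) of the 37 tested members, grouped by role, with bars of 1 standard error and a dashed line at the median of all tested genes (0.16). After TMM normalization 33 of the 37 points lie above 0, against 58.4% of all tested genes. The number was 36 with library sizes alone (77.4% of all tested genes) and 37 when scaled to all reads (92.3%). Filled points mark the 7 members that met the criterion, and TMBIM6 and EDEM1 lie farthest to the right.

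The size of a change and some directions depended on how libraries were scaled, while the distance of the members' median from that of all tested genes stayed between 0.26 and 0.36 over these scalings. With library sizes alone the median of all tested genes was 0.74 on the log2 scale. Above 0 were 36 of 37 members, against 77.4% of all tested genes. By the criterion 17 members were higher and 0 lower, where 24.2% of all tested genes were higher and 6.01% lower. With counts scaled to all reads of a library, counted or not, the median of all tested genes was 1.58. Above 0 were 37 of 37 members, against 92.3% of all tested genes. By the criterion 27 members were higher and 0 lower, where 46.1% of all tested genes were higher. The members' median lay 0.28 above that of all tested genes with library sizes alone and 0.36 above it when scaled to all reads. With a trend on gene length removed, it lay 0.34 above, and 30 of 37 members were above 0 against 49.7% of all tested genes. The tested members had a median length of 1977 bp and a median mean count of 40.3, and all tested genes had 2305 bp and 27.6.

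**Figure D2:**
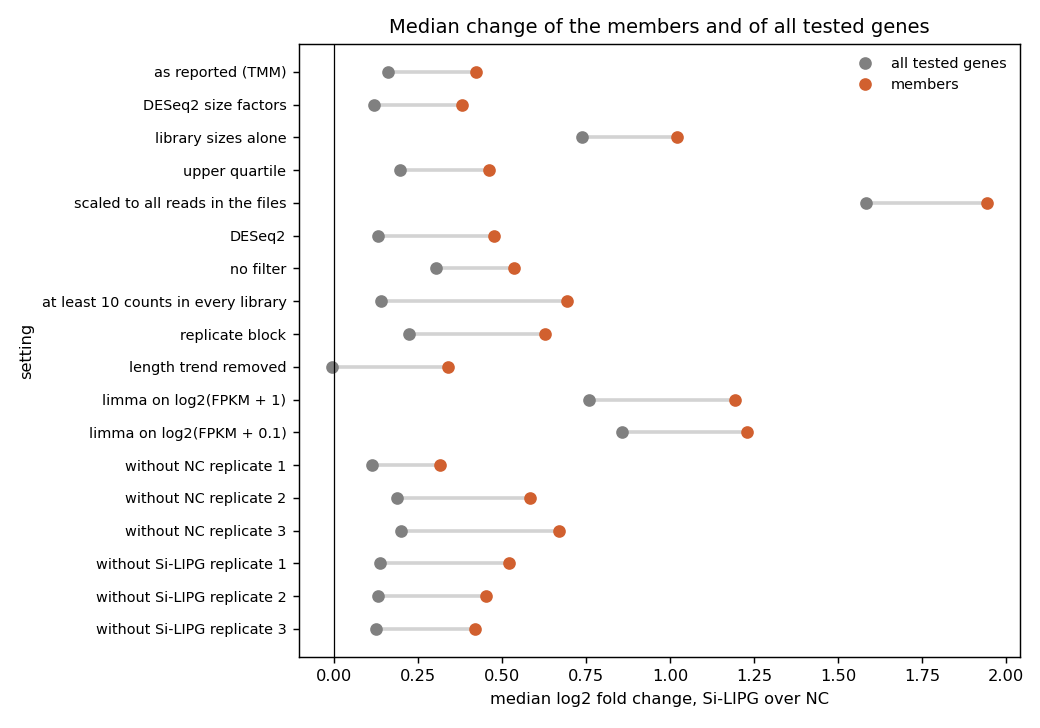
Medians of the log2 fold change (x axis, Si-LIPG over NC) of the tested members and of all tested genes under each setting (y axis), joined by a grey bar. Both medians move together with the scaling, from 0.42 and 0.16 after TMM normalization to 1.94 and 1.58 with scaling to all reads, and the members' median is the higher under every setting drawn.

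**Figure D3:**
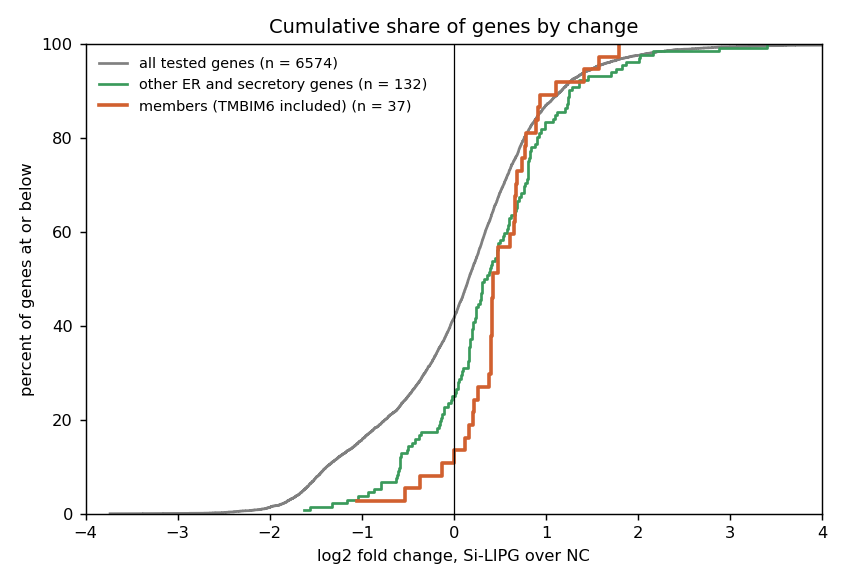
Share of genes (y axis, percent) at or below each log2 fold change (x axis, Si-LIPG over NC, TMM-normalized) for the 37 tested members, the 132 tested genes of the wider ER and secretory lists and all 6574 tested genes. The curves of the members and of the wider lists lie to the right of the curve for all genes over its lower part, and the curves come together at the highest fold changes.

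The sensors of the unfolded protein response were counted at low levels. EIF2AK3, which encodes PERK, had 6.48, 14.4 and 34.7 CPM in the NC libraries and 29.3, 34.2 and 37.3 CPM in the Si-LIPG libraries. The groups overlapped, since NC 3 lay above Si-LIPG 1 and Si-LIPG 2, and the log2 fold change was 0.78 (SE 0.60, edgeR adjusted p = 0.522). It was 0.44 without NC 1, and without NC 3 it was 1.60 and met the criterion. In all, EIF2AK3 met the criterion in 2 of 16 other settings. ERN1, which encodes IRE1, the kinase and endoribonuclease that splices XBP1 mRNA, had too few counts to be tested, with 0, 2 and 0 for NC and 14, 11 and 9 for Si-LIPG. Every Si-LIPG library had more than every NC library. Over the groups this was 2 against 34 counts, a ratio of 10.7 after division by the counted reads, with an exact Poisson 95% interval of 2.75 to 92.2 that covers counting error only. On that scale, library sizes alone, the median log2 fold change of all tested genes was already 0.74. Without a filter on counts and after TMM normalization, the log2 fold change of ERN1 was 2.92 (SE 1.55). In that fit edgeR's quasi-likelihood test gave ERN1 an unadjusted p of 0.0606 and an adjusted p of 0.389.

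ATF6, the sensor that is cut in the Golgi to release a transcription factor, had 4, 6 and 4 counts for NC and 11, 44 and 40 for Si-LIPG, also too few for the test. All of its Si-LIPG libraries again had the higher counts before scaling, and its ratio per counted read was 4.29 (exact Poisson 95% interval 2.43 to 8.14, counting error only). With the TMM factors of the tested genes, 4 counts were 13.0 CPM in NC 1 and 11 counts were 12.4 CPM in Si-LIPG 1. The groups of ATF6 therefore overlapped on that scale. Without the filter its unadjusted p was 0.0605 and its adjusted p 0.389 with edgeR. RefSeq lists the unnamed loci LOC102183472 and LOC102183742 over ATF6. The related sensor ATF6B was tested and did not meet the criterion.

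The transcription factors that act below PERK did not differ by more than the spread between libraries. ATF4, which is translated when PERK halts general protein synthesis, had 117, 351 and 381 CPM in the NC libraries and 344, 456 and 394 CPM in the Si-LIPG libraries. NC 1 was far below all other libraries, and the remaining NC libraries lay within the Si-LIPG range. Its log2 fold change was 0.48 (95% interval -0.35 to 1.30, edgeR adjusted p = 0.543), and 0.12 without NC 1. ATF4 met the criterion in 3 of 17 other settings, with library sizes alone (0.98), scaled to all reads (1.78) and with a replicate block (0.59). DDIT3 (CHOP), the factor tied to cell death under lasting stress, had 6.48, 43.2 and 45.7 CPM in the NC libraries and 59.8, 34.2 and 40.2 CPM in the Si-LIPG libraries. Apart from the low value in NC 1, the groups were mixed. The log2 fold change of DDIT3 was 0.41 (95% interval -0.77 to 1.59, edgeR adjusted p = 0.740), and it changed sign without NC 1 (-0.0020). In ARS1.2 the gene MARS overlaps DDIT3, so that reads of MARS could be part of its count.

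Of the 5 tested members in this role, 0 met the criterion with edgeR after TMM normalization without covariates, also at the unadjusted p under 0.05. Of all tested genes, 7.83% were higher and 12.9% lower by it. The log2 fold changes of the 5 ran from -0.36 to 0.79 with a median of 0.41. The ends of this range were the subunits that steer the phosphatase of eIF2α, which lifts the halt on translation. The stress-induced subunit PPP1R15A (GADD34) had a log2 fold change of 0.79 (SE 0.60, edgeR adjusted p = 0.510, and 0.28 without Si-LIPG 2), and the constitutive subunit PPP1R15B had -0.36 (SE 0.42, edgeR adjusted p = 0.691), a sign that became positive with library sizes alone (0.27) and scaled to all reads (1.16). The remaining member was TRIB3, a pseudokinase induced by ATF4 and DDIT3.

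Among the folding enzymes and chaperones of the ER lumen, 14 of 15 members were tested, 13 were above 0, 3 (21.4%) met the criterion higher and 1 (7.14%) lower, against 7.83% and 12.9% of all tested genes, and the median log2 fold change was 0.42. Protein disulfide isomerases make and exchange the disulfide bonds of new proteins. PDIA3 (ERp57), the isomerase that works with calnexin and calreticulin on glycoproteins, had 263, 204 and 274 CPM in the NC libraries and 299, 464 and 427 CPM in the Si-LIPG libraries. The groups did not overlap, by a small margin between NC 3 and Si-LIPG 1, and the log2 fold change was 0.69 (SE 0.31, edgeR adjusted p = 0.226). PDIA3 missed the criterion in 6 of 17 other settings, among them without NC 2, without NC 3, without Si-LIPG 2 and without Si-LIPG 3 (log2 fold change 0.56 to 0.77).

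PDIA6, an isomerase that also binds the sensor IRE1, had 104, 115 and 162 CPM in the NC libraries and 143, 313 and 256 CPM in the Si-LIPG libraries. Si-LIPG 1 lay below NC 3, so the groups overlapped, while Si-LIPG 2 and 3 were above all NC libraries. Its log2 fold change was 0.89 (SE 0.36, edgeR adjusted p = 0.157), and it missed the criterion without NC 2 (0.82), without Si-LIPG 2 (0.63) and without Si-LIPG 3 (0.82). CATSPER2 overlaps PDIA3 and ATP6V1C2 overlaps PDIA6 in ARS1.2.

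UGGT1, the folding sensor that adds a glucose back to glycoproteins that are not yet folded and so returns them to calnexin and calreticulin, had 58.4, 63.0 and 18.9 CPM in the NC libraries and 108, 95.3 and 94.2 CPM in the Si-LIPG libraries. The groups did not overlap, and the low value was that of NC 3. The log2 fold change was 1.11 (SE 0.44, edgeR adjusted p = 0.147). UGGT1 missed the criterion in 3 of 17 other settings. These were without NC 3 (0.70), without Si-LIPG 1 (1.02) and with a trend on gene length removed (0.85).

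The members with the highest mean FPKM over all libraries were P4HB (490.3), CALR (388), ATF4 (314), CANX (226) and PDIA3 (223), compared with 16.6 as the median of all tested genes. P4HB, the founding disulfide isomerase and a subunit of the enzyme that hydroxylates collagen, had 561, 665 and 899.9 CPM in the NC libraries and 874, 1027 and 931 CPM in the Si-LIPG libraries. Its groups overlapped at NC 3 and Si-LIPG 1, and the log2 fold change was 0.41 (95% interval -0.25 to 1.08, edgeR adjusted p = 0.508). P4HB met the criterion in 4 of 17 other settings.

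CALR encodes calreticulin and CANX calnexin, the soluble and the membrane-bound chaperone that bind glycoproteins by their glucose. CALR had 966, 1259 and 1265.5 CPM in the NC libraries and 1334, 1679 and 1673 CPM in the Si-LIPG libraries, without overlap, and a log2 fold change of 0.42 (95% interval -0.24 to 1.09, edgeR adjusted p = 0.493). CANX had 239.9, 419.7 and 397 CPM in the NC libraries and 540.5, 564 and 573 CPM in the Si-LIPG libraries, again without overlap. The Si-LIPG libraries lay close together for CANX, NC 1 was the lowest, and the log2 fold change was 0.66 (95% interval -0.01 to 1.33, edgeR adjusted p = 0.250). CALR met the criterion in 5 of 17 other settings and CANX in 9 of 17, among them CANX without NC 2 (0.80).

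**Figure D4:**
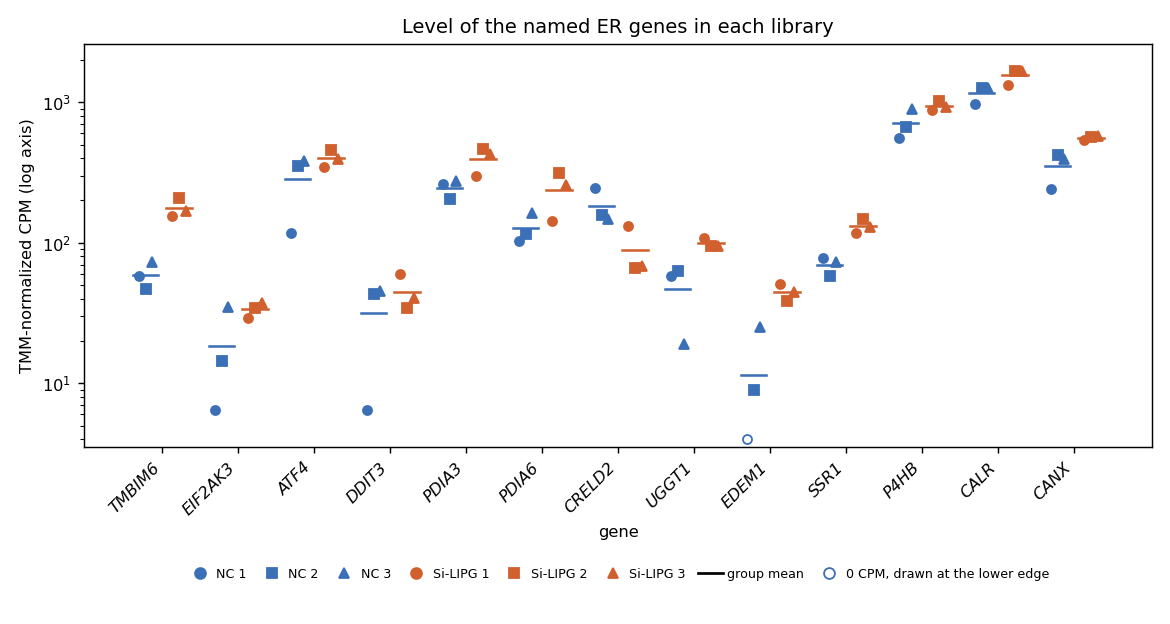
TMM-normalized CPM (y axis, log scale) of TMBIM6 and 12 other members in each library, with NC libraries in blue, Si-LIPG libraries in orange and a bar at the mean of each group. TMBIM6, SSR1, UGGT1, EDEM1, CALR, CANX and PDIA3 show separate groups with Si-LIPG the higher, and CRELD2 shows separate groups the other way. NC 1 is the lowest library for ATF4, DDIT3, EIF2AK3, CALR, CANX, P4HB, PDIA6 and EDEM1 (0 CPM).

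CRELD2 was the 1 member that was lower by the criterion. It encodes a disulfide isomerase-like protein of the ER that is induced by ATF6 and is known for roles in cartilage and bone. Its level was 246, 159 and 147 CPM in the NC libraries and 131, 66.0 and 68.7 CPM in the Si-LIPG libraries, without overlap, a log2 fold change of -1.05 (SE 0.37, edgeR adjusted p = 0.106). The deposited counts themselves were alike, 76, 88 and 93 for NC and 116, 81 and 94 for Si-LIPG. The direction therefore turned to 0.37 with scaling to all reads, and it was -0.45 with library sizes alone. CRELD2 did not meet the criterion in either, nor with limma on FPKM (-0.49 and -0.50), without Si-LIPG 2 (-0.85) or without Si-LIPG 3 (-0.86), and without Si-LIPG 1 it was -1.46 with an edgeR adjusted p under 0.05. MANF, like CRELD2 a secreted protein induced by ER stress, did not meet the criterion, nor did PDIA4, PDIA5, ERO1A, ERP29, ERP44 and TXNDC5. The chaperone partner SDF2L1 was too low to test, with 0, 0 and 6 counts for NC and 12, 8 and 13 for Si-LIPG.

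The genes of ER-associated degradation, which carry misfolded proteins out of the ER to the proteasome, had a median log2 fold change of 0.66. Of the 11 members 9 were tested, 8 were above 0 and 1 (11.1%), EDEM1, met the criterion, against 7.83% of all tested genes higher by it. EDEM1, a mannosidase-like protein that marks misfolded glycoproteins for disposal, had 0, 9.01 and 25.2 CPM in the NC libraries and 50.8, 38.3 and 44.6 CPM in the Si-LIPG libraries. The groups did not overlap, and the NC libraries spread from a count of 0 to 16 counts. Its fitted log2 fold change was 1.80 (SE 0.70, edgeR adjusted p = 0.144), above that of TMBIM6. It was 1.35 without NC 1, and without NC 2 (1.58) or Si-LIPG 1 (1.65) it missed the criterion, while without NC 3 it was 3.00 with an edgeR adjusted p under 0.05.

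SEL1L, the scaffold of the ubiquitin ligase SYVN1 (HRD1), had 149, 171 and 96.1 CPM in the NC libraries and 199, 242 and 194 CPM in the Si-LIPG libraries, without overlap, and a log2 fold change of 0.61 (SE 0.32, edgeR adjusted p = 0.308). It was 0.40 without NC 3, and it met the criterion in 7 of 17 other settings, among them without NC 1 (0.67). HERPUD1, which recruits to this ligase and is a classical target of the stress response, had 0.67 (SE 0.50, edgeR adjusted p = 0.496), with 0.26 without NC 1 and 1.34 without NC 3, where it met the criterion. VCP, the ATPase that pulls proteins out of the membrane and does so in all cells, had 0.66 (SE 0.38, edgeR adjusted p = 0.360), with 0.32 without NC 1 and 1.02 without NC 3, where it also met the criterion. In all, HERPUD1 met the criterion in 4 of 16 other settings and VCP in 7 of 17. EDEM2 was the tested degradation gene below 0 after TMM normalization (-0.13, SE 0.47, edgeR adjusted p = 0.917), and it was above 0 with library sizes alone (0.47) and scaled to all reads (1.36). SYVN1, EDEM3, DERL1 and OS9 did not meet the criterion. DERL2 and DERL3, channel-like proteins of the same pathway, were too low to test, with 8 against 57 and 2 against 2 counts over the NC and Si-LIPG groups, and 45 of the 57 were in Si-LIPG 3. In ARS1.2 MRPL49 overlaps SYVN1 and FANCG overlaps VCP.

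For translocation into the ER, 6 of 7 members were tested, 5 were above 0 and 1 (16.7%) met the criterion, against 7.83% of all tested genes higher by it, with a median log2 fold change of 0.39. That gene was SSR1, the α subunit of the TRAP complex, which sits beside the SEC61 channel and helps some proteins to enter. SSR1 had 77.8, 57.6 and 72.5 CPM in the NC libraries and 117, 148 and 129 CPM in the Si-LIPG libraries. The groups stood well apart, and the log2 fold change was 0.93 (SE 0.33, edgeR adjusted p = 0.112). SSR1 missed the criterion in 1 of 17 other settings, without Si-LIPG 2 (0.84), the fewest among the members at the criterion other than TMBIM6.

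SSR3, the γ subunit of the same complex, had counts of 16, 8 and 22 for NC and 6, 38 and 40 for Si-LIPG. Si-LIPG 1 held fewer than any NC library, and the log2 fold change was -0.53 (SE 0.66, edgeR adjusted p = 0.713) after TMM normalization. It was 0.19 for library sizes alone and 1.19 scaled to all reads. SEC61G, the small γ subunit of the channel, had a large and uncertain log2 fold change of 1.41 (SE 0.95, edgeR adjusted p = 0.444). It was 0.79 without NC 2, and without NC 3 it was 2.96 and met the criterion. In all, SEC61G met the criterion in 3 of 16 other settings. The channel's main subunit SEC61A1 and the accessory proteins SEC62 and SEC63 did not meet the criterion.

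Summed over the 42 members with a row, the TMM-normalized CPM was 3957, 4814 and 5328 for NC and 5789, 6974 and 6687 for Si-LIPG, a sum on this scale that was added after the data were seen. Every Si-LIPG library was above every NC library, and the ratio of the means was 1.38, and 1.36 without TMBIM6. With each library left out in turn it was 1.28 to 1.48. On library sizes alone, where the median log2 fold change of all tested genes was already 0.74, the ratio was 2.05, and 1.71 without NC 1. With all reads of a library as the base, where that median was 1.58, it was 3.75. These sums are descriptions without a test. The TMM factors lay between 0.601 for NC 1 and 1.37 for Si-LIPG 3.

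The libraries of a group differed among themselves. NC 1 was the lowest of the 6 libraries for 16 of the 37 tested members (43.2%), compared with 35.5% of all tested genes. Within the Si-LIPG groups, library 1 was the lowest for 25 of 37 members (67.6%), compared with 39.0% of all tested genes, and TMBIM6, PDIA3, PDIA6 and SSR1 were among these. Without NC 1 the members' median log2 fold change was 0.31, which was 0.20 above that of all tested genes, and without Si-LIPG 1 it was 0.52, which was 0.39 above.

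A wider set of 182 further ER and secretory genes in 7 lists, none of them a member, was looked at in the same fit. Of 132 tested, 99 (75%) were above 0, against 58.4% of all tested genes, and their median log2 fold change was 0.34. By the criterion 18 (13.6%) were higher and 4 (3.03%) lower, against 7.83% and 12.9% of all tested genes. An adjusted p under 0.05 was reached by 4 that were higher (HSP90B1, STT3A, DAD1 and SEC31A) and 1 that was lower (GET4). HSP90B1 (GRP94), the HSP90 chaperone of the ER lumen, rose from 292, 489.9 and 478 CPM in the NC libraries to 737, 1060 and 1118 CPM in the Si-LIPG libraries, a log2 fold change of 1.21 (SE 0.33, edgeR adjusted p = 0.0450). HSPA5 (BiP), the HSP70 chaperone that is the usual marker of ER stress, had 279, 499 and 414 CPM in the NC libraries and 561, 691 and 774 CPM in the Si-LIPG libraries. No NC library of HSPA5 reached a Si-LIPG library, and its log2 fold change was 0.76 (SE 0.32, edgeR adjusted p = 0.186). HSPA5 met the criterion, but missed it in 5 of 17 other settings, among them without NC 1, NC 3, Si-LIPG 2 or Si-LIPG 3 (0.57 to 0.79).

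STT3A and DAD1 belong to the oligosaccharyltransferase, the enzyme that attaches sugar chains to new proteins. STT3A, a catalytic subunit, rose from 71.3, 70.2 and 96.1 CPM to 172, 209 and 188 CPM, a log2 fold change of 1.25 (SE 0.32, edgeR adjusted p = 0.0400). DAD1, a small subunit first named as a defender against cell death, had 45.4, 10.8 and 25.2 CPM in the NC libraries and 31.6, 163 and 148 CPM in the Si-LIPG libraries, so that Si-LIPG 1 lay within the NC range. Its log2 fold change was 2.16 (SE 0.61, edgeR adjusted p = 0.0471).

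SEC31A, part of the outer coat of the vesicles that leave the ER, rose from 38.9, 63.0 and 75.6 CPM to 131, 151 and 146 CPM, a log2 fold change of 1.24 (SE 0.35, edgeR adjusted p = 0.0491). GET4, which hands tail-anchored proteins on to the ER membrane, fell from 1436, 693 and 618 CPM to 431, 237 and 258 CPM, a log2 fold change of -1.57 (SE 0.39, edgeR adjusted p = 0.0400) that was -0.03 when scaled to all reads. These adjusted p values lay close to the threshold, and without NC 1, NC 2, Si-LIPG 2 or Si-LIPG 3 no gene of the 6574 had an adjusted p under 0.05 with edgeR. In these fits 10, 5, 3 and 4 of the 37 members had an unadjusted p under 0.05, and all of them met the criterion. Of all tested genes, 8.26%, 9.45%, 3.51% and 3.54% were higher by the criterion and 9.87%, 13.2%, 9.7% and 9.29% lower.

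By list, and to be read against 7.83% of all tested genes higher and 12.9% lower, the criterion was met higher and lower by 6 and 0 of 26 tested genes among the lumenal HSP70 and HSP90 chaperones and co-chaperones, by 2 and 0 of 7 in the oligosaccharyltransferase, by 3 and 2 of 19 in signal recognition and further translocation, by 5 and 1 of 32 in traffic between ER and Golgi, by 1 and 0 of 21 in further ER-associated degradation and by 1 and 1 of 24 among further ER stress factors and targets. The 3 tested relatives of TMBIM6 (TMBIM1, GRINA and GHITM) did not meet the criterion. The list medians ran from 0.24 for the further stress factors and targets to 0.62 for the oligosaccharyltransferase, compared with 0.16 for all tested genes.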

How the data were processed

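RNA-seq of 3 NC and 3 Si-LIPG libraries was analysed, with groups and replicate numbers from the sample titles. The authors deposited raw counts per gene for each library and FPKM values for all libraries in 1 table. The submitters' processing notes name fastp, HISAT2, SAMtools and HTSeq, and their versions, the strand setting and the genome build are not given in the sources used here. The FPKM values came from the same counts, which gave the gene lengths. The 5 rows that name no gene (97.1% to 99.0% of reads) entered neither library sizes nor tests. The depth behind each value is 524776 to 1051230 counted reads per library, which with a common biological coefficient of variation of 40.5% limits the precision.

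Genes were kept by filterByExpr (6574 genes), and counts were TMM-normalized, written as CPM and compared with the quasi-likelihood test of edgeR (edgeR 4.0.16, limma 3.58.1, DESeq2 1.42.0, R 4.3.3) without covariates. The study's criterion (unadjusted p under 0.05, fold change over 1.5) was used, with Benjamini-Hochberg adjusted p values over all tested genes. FPKM values were tested with limma on log2(FPKM + 1) and log2(FPKM + 0.1) as alternatives, beside other scalings, filters, DESeq2, a length trend (loess, span 0.5), a replicate block, other thresholds, summed levels of the members (given without a test, and on the TMM scale added after the data were seen) and fits without each library in turn. Procedures were tested on simulated data. In these, 63.5% of 200 genes changed by 2 on the log2 scale were recovered after adjustment, and 3 of 130 calls were false. Smaller changes were not simulated. Figures were drawn with matplotlib 3.10.9.

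The members and the gene lists were chosen with earlier results of these data known. Named by rule were TMBIM6, the sensors and factors ERN1, EIF2AK3, ATF6, XBP1, ATF4 and DDIT3, members at the criterion, the 5 members with the highest mean FPKM and genes of the wider lists with an adjusted p under 0.05. The other members named with values (PDIA4, SEL1L, PPP1R15A, PPP1R15B, HERPUD1, VCP, EDEM2, SEC61G, SSR3, DERL2, DERL3, SDF2L1) and HSPA5 were chosen after their values were seen. Chi-square values over degrees of freedom between replicate libraries were 4.21 to 12.5, above sampling noise, so none was counted as a copy. Overlapping genes came from RefSeq's annotation of ARS1.2, on whose chromosomes 40 of the 42 members were placed. Of these, 9 were overlapped by another gene and 17 had one within 1 kb. Sequences and coordinates of the members were not used here.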

Additional observations from a re-analysis of the deposited data

How the results depend on the processing

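The members' median lay above that of all tested genes under all 17 other settings of the fit, by 0.20 to 0.55, and the largest value (0.55) was that of the 21 members with at least 10 counts in every library. The number of members at the criterion, 7 as reported (6 higher, 1 lower), was less stable. It was 17 with library sizes alone (17 higher, 0 lower, against 24.2% and 6.01% of all tested genes), 27 scaled to all reads (27 and 0, against 46.1% and 0.0304%), 11 with at least 10 counts in every library (10 of 21 higher, 1 lower, against 14.9% and 23.8%), 16 and 14 with limma on log2(FPKM + 1) and log2(FPKM + 0.1) (16 and 14 higher, against 23% and 19%, and 0 lower, against 6.13% and 6.39%), and 4 at a fold change over 2 (3 higher). Leaving out each library in turn gave 3 to 10, of which 3 to 9 were higher and 0 to 1 lower, the lowest without Si-LIPG replicate 2 and the highest without either of NC replicates 1 and 3. Of all tested genes, 3.51% to 9.8% were higher and 9.29% to 14% lower in these fits. The number with an adjusted p under 0.05 was 1 after TMM normalization (428 of all 6574 tested genes), which was TMBIM6, on whose rise the list was chosen. It was 2 with library sizes alone (123 of all tested genes) and 11 scaled to all reads (750). With at least 10 counts in every library it was 6 of 21 (714 of 2757). It was 0 with both limma fits (0 of all tested genes, with 16 and 14 members at an unadjusted p under 0.05) and 0 to 2 with a library left out (0 to 648 of all tested genes). The log2 fold change of TMBIM6 was 2.17 with library sizes alone, 3.03 scaled to all reads, 1.84 with at least 10 counts in every library and 2.06 and 2.17 with the limma fits, and 1.42 to 1.76 with a library left out. The cause of these differences was not tested. With the replicate number as a replicate block, 12 members met the criterion (11 higher, 1 lower, against 10.4% and 13.2% of all tested genes), 8 had an adjusted p under 0.05 (925 of all 6574 tested genes did, against 428 without the block) and the members' median lay 0.40 above that of all tested genes. The deviations of NC and Si-LIPG libraries of the same number correlated at 0.21, 0.064 and 0.11. NC 1 and NC 3 correlated best with the Si-LIPG library of their own number, and NC 2 with Si-LIPG 3 (0.089). Whether libraries of the same number share a batch was not tested. Of the 36 members other than TMBIM6, 12 changed sign in at least 1 setting, 1 of them (CRELD2) at the criterion. Among the members with values in the text, the sign changed for CRELD2 scaled to all reads (0.37), for DDIT3 with a library left out (-0.0020 to 0.72, the lowest without NC replicate 1), for PPP1R15B with library sizes alone (0.27), scaled to all reads (1.16) and in both limma fits (0.21 and 0.24), for SSR3 with library sizes alone (0.19) and scaled to all reads (1.19), and for EDEM2 with library sizes alone (0.47), scaled to all reads (1.36), with at least 10 counts in every library (0.15), in both limma fits (0.39 and 0.41) and with a library left out (-0.38 to 0.18, above 0 without NC replicate 3 or Si-LIPG replicate 1). The summed CPM ratio was 2.05 on library sizes alone and 1.38 after TMM normalization, a scale added after the data were seen. At this depth 5 of the 42 members with a row (ERN1, ATF6, SDF2L1, DERL2 and DERL3) had too few counts to be tested.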
